A study of Mus musculus with 44 samples.

Results

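The cytosolic ribosomal protein genes are described here across sorted populations of the neonatal mouse skeletal stem cell lineage. They are the genes of the count table named Rpsa, Rplp0, Rplp1 or Rplp2, or named Rpl or Rps followed by a digit. Pseudogene and related-sequence entries ending in -ps or -rs (269 entries), and the Rps6k kinases and Rps19bp1 (11 entries), were left out. The rule took 91 of 46831 genes and used no measured value. Of the 91, 46 encode proteins of the large (60S) subunit and 31 proteins of the small (40S) subunit, and these 77 are called the core genes below. The other 14 are paralogs or copies, such as Rpl22l1, Rpl39l, Rps27l and Rps4l. Fau, which encodes a ribosomal protein fused to a ubiquitin-like protein, is not named in this way and was counted among the companion genes.

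Ribosomes read messenger RNA and build proteins, and each of their subunits holds ribosomal RNA and a fixed set of proteins. Mammalian ribosomal protein messages are abundant, and many begin with a C followed by a run of pyrimidines, the 5′-terminal oligopyrimidine (TOP) tract, through which growth signals control their translation. Heterozygous loss of several of these genes, RPS19 and RPL5 among them, causes Diamond-Blackfan anaemia in people, and loss of Rpl38 in mice disturbs patterning of the axial skeleton.

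The study sorted cells from the long bones of the lower limbs of C57BL/6J mice (C57Bl6 in the labels) at postnatal day 3 and made an m6A immunoprecipitation (IP) library and an input library of each sample by SLIM-seq, a low-input method. As wild-type controls of the deletion the study used animals with the unrecombined allele (Mettl3 fl/fl). It does not state whether the wild-type animals of all 8 populations carried that allele. Mettl3cko animals carried the allele with Col2a1-Cre, so that deletion of Mettl3, the catalytic subunit of the m6A methyltransferase, depends on activity of the Col2a1 promoter. In wild type, 8 populations were collected. They are the skeletal stem cell (SSC), the bone, cartilage and stromal progenitor (BCSP) and its precursor pBCSP, and the downstream pro-chondrogenic progenitor (PCP), THY, B-cell lymphocyte stromal progenitor (BLSP), 6C3 and hepatic leukemia factor expressing (HEC) cells. Mettl3cko libraries cover SSC, pBCSP and BCSP alone. Each of the 22 groups (genotype, population and assay) has 2 libraries, which makes 44. Both sexes entered without distinction. Gates removed cells with the blood and endothelial surface proteins CD45, Ter119 and Tie2 and used CD51, Thy1, 6C3, CD105 and CD200, so the genes of those proteins are no finding between populations.

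Library totals ran from 19795666 to 44046651 counts in wild-type input, from 16480027 to 35856651 in wild-type IP, from 30050178 to 35325482 in Mettl3cko input and from 22056571 to 33126857 in Mettl3cko IP. Replicates correlated at a Pearson r of 0.909 to 0.976 (scaled log2 counts) among inputs, 0.859 to 0.922 among wild-type IP libraries and 0.729 to 0.771 among Mettl3cko IP libraries. The Mettl3cko IP libraries also held fewer genes with at least 10 counts than wild-type IP libraries, with the numbers given beside their ratios. Mettl3 itself had 454 and 449 input counts in wild-type SSC against 486 and 593 in Mettl3cko SSC. It had 369 and 526 against 759 and 741 in pBCSP, and 571 and 618 against 458 and 607 in BCSP, so these counts, taken over the whole gene, were higher in both libraries labelled Mettl3cko in SSC and pBCSP and overlapped in BCSP with the lowest count in Mettl3cko. No difference passed the edgeR test (log2 difference 0.19, 0.69 and −0.15 in SSC, pBCSP and BCSP). Counts by exon were not analysed, so these counts do not show whether the deletion took place. The study reported the deletion by qRT-PCR and, in SSC, by western blot. It also reported lower m6A by dot blot and by SLIM-seq. Blood-cell genes held 0.000319 to 0.00164% of counts in the 6 wild-type stem and progenitor inputs, 0.00189 to 0.0176% in the 10 downstream inputs and 0.00178 to 0.00484% in the 6 Mettl3cko inputs. Ptprc, which encodes CD45, had 0 counts in all 6 wild-type stem and progenitor inputs and 2 to 31 downstream. Of the 6 Mettl3cko inputs, 5 had 0 counts of Ptprc and the highest had 70. Hba-a1 had medians of 20 counts in wild-type stem and progenitor inputs and 1042 downstream. Lyz2 had 120 and 117, Coro1a 28 and 29 and Laptm5 25 and 11, so the list did not move as one. These are bulk libraries, in which fewer cells of a kind and less RNA per cell cannot be told apart.

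Start-site sequences are printed for some of the genes named in the results, and others, such as Rpl3, Rps29 and Rps12, are not shown. The tract is more frequent among those printed than among the core genes, whose share is given below. Capitals mark the tract where the annotated RefSeq start (GRCm38.p6) is a C followed by at least 4 bases that are each C or T. Each window runs 5′ to 3′ on the transcribed strand, 15 bases before the start and 15 from it, and only that strand was searched.
Rps6 (chr4:86857353-86857382, minus strand): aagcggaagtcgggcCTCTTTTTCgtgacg
Rpl38 (chr11:114668565-114668594, plus strand): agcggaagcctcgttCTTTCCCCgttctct
Rpl15 (chr14:18270972-18271001, minus strand): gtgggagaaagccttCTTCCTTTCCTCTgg
Rps18 (chr17:33955651-33955680, minus strand): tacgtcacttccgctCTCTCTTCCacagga
Rps27 (chr3:90213634-90213663, minus strand): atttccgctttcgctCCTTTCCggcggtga
Rps28 (chr17:33824548-33824577, minus strand): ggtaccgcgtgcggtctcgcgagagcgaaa
Rpl10 (chrX:74270801-74270830, plus strand): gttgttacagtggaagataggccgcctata
The tracts of Rps6 and Rps18 are 9 bases long, that of Rpl15 is 13, that of Rpl38 is 8 and that of Rps27 is 7. Rps28 and Rpl10 have no such letters at the annotated start. A tract began exactly at the annotated start in 13 of the 57 core genes with an entry (22.8%), against 813 of 27025 genes of the table (3.01%). Within 5 bases of the start the shares were 47.4% of core genes and 21.2% of all genes. Of the companion genes, which encode translation factors and other proteins read from TOP messages, 4 of 12 had the tract at the start (33.3%), while no entry of 24 ribosome biogenesis genes or of 69 mitochondrial ribosomal protein genes did. A match of letters is a description, and annotated starts are not always the base where transcription begins.

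Ribosomal protein genes took a small and uneven share of every input library. In wild type the 91 genes together held 1.40 and 1.84% of counts in the SSC inputs, 1.496 and 1.31% in those of pBCSP and 2.28 and 1.64% in those of BCSP. Downstream, PCP inputs held 0.840 and 0.776%, THY 0.957 and 0.991%, BLSP 1.19 and 0.917%, 6C3 0.508 and 0.678% and HEC 0.977 and 0.714%. The lowest stem or progenitor library (1.31%) thus stood above the highest downstream library (1.19%). BCSP and SSC overlapped in this order, as did THY, BLSP and HEC, while both 6C3 libraries were below all others. In the wild-type IP libraries the same genes held 3.54 to 4.52% of counts in stem and progenitor cells and 2.40 to 3.43% downstream.

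**Figure D1:**
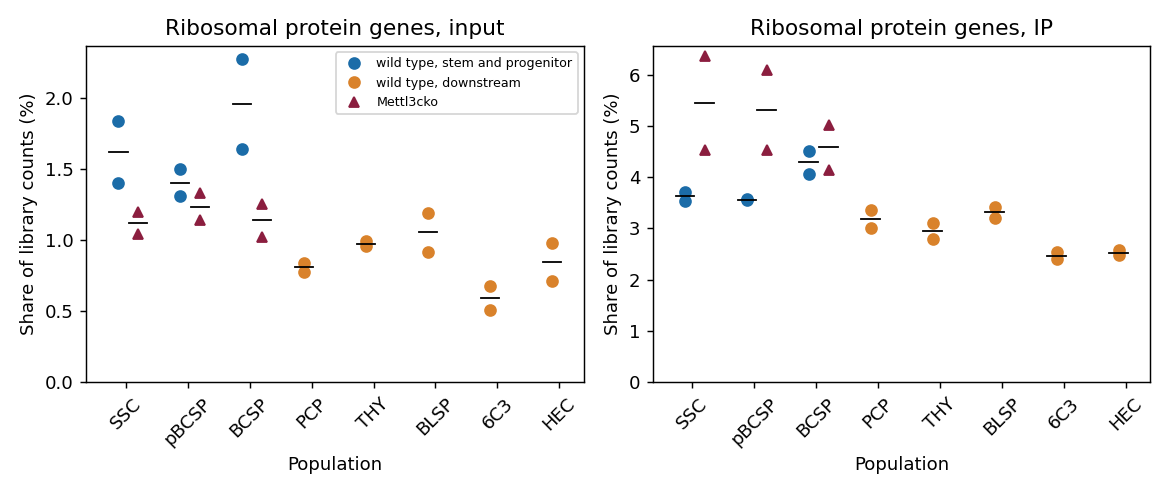
Share of library counts held by the 91 ribosomal protein genes (y axis, %) in each population (x axis), input at left and IP at right. Each point is a library, circles are wild type (blue for stem and progenitor, orange for downstream), triangles are Mettl3cko, and black bars are means of 2 libraries. Wild-type stem and progenitor inputs lie at 1.31 to 2.28% and downstream inputs at 0.508 to 1.19%.

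Among the core genes, levels within the wild-type inputs differed widely when counts were divided by the summed exon length of each gene (RPKM, counts scaled to exon length and library size). The median over 16 inputs was lowest at 0.931 RPKM for Rps10, had quartiles of 28.1, 48.8 and 93.2 RPKM over the 77 genes, and was highest at 324 RPKM for Rplp0. Rplp0 encodes the base of the ribosomal stalk, to which the Rplp1 and Rplp2 proteins bind. After it came Rplp1 (219 RPKM), Rpl41 (213 RPKM), Rpl36 (211 RPKM), Rpl5 (201 RPKM) and Rps3a1 (192 RPKM). Rpl13a (2.08 RPKM) and Rpl24 (1.53 RPKM) were, like Rps10, far below the other core genes. Ribosomal protein genes have many near-identical processed copies in the mouse genome, and the counting rule for reads that map to several places was not stated. Levels of genes with such copies, and their order, are therefore uncertain. The order also depends on the length used. The summed exon length and that of the longest transcript are 3920 and 2045 bases for Rpl5 and 1168 and 695 for Rpl41. For Rplp1 both are 499 bases. Most of the genes were well sampled, with 78 of the 91 at 100 or more counts in each of the 44 libraries. Rps12l1 was at 0 counts throughout and Rpl10l never exceeded 2 counts.

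Do these genes differ in input level between the 8 wild-type populations? They did as a group with few exceptions. Of the 87 that passed the filter on low counts (Rpl3l, Rpl10l, Rps3a2 and Rps12l1 did not), 78 differed among populations by edgeR's quasi-likelihood test at an adjusted p under 0.05, where 40.1% of all genes tested did. BCSP was the population of highest mean for 74 of the 87 and SSC for 9, and 6C3 was the lowest for 74 and PCP for 8. These ranks were counted for members alone, without a share of all genes, and rest on means of 2 libraries. Summed over members, counts scaled to library size with TMM factors were 23784 and 17183 in BCSP and 15307 and 19255 in SSC. The sums were 5412 and 7544 in 6C3 and 7891 and 7371 in PCP, so the libraries overlapped in both comparisons. Levels of the genes were also correlated over the inputs. Across the 16 inputs, which share depth and library with every gene in them, the Pearson r of a core gene with the mean of the other members had a median of 0.962 and exceeded 0.8 for 73 of the 77. Over all members the lowest values were −0.361 for Rps4l, 0.128 for Rpl39l, 0.141 for Rpl37rt, 0.25 for Rpl24, 0.428 for Rps3a3 and 0.581 for Rpl39. This r was computed for members alone, so no share of all genes stands beside it. It takes in the difference between stem and progenitor and downstream populations described next, and was not computed apart from that difference.

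The study's main division sets the 3 stem and progenitor populations against the 5 downstream ones. In this comparison 80 of the 87 genes were higher in stem and progenitor cells, where 23.1% of all genes tested were called higher, and 1 was lower, where 28.3% were. The median log2 difference of the 87 was 0.98, against −0.11 over the 20060 genes tested. For 47 of them every stem and progenitor library lay above every downstream library, which held for 7.92% of all genes. By subunit, 43 of 46 genes of the 60S subunit (median 0.96) and 31 of 31 of the 40S subunit (median 0.99) were called higher. Leaving out each library in turn left between 78 and 82 calls.

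Rpl3, whose protein reaches towards the peptidyl transferase centre, was among the genes with the widest gaps. Its input level in CPM (counts scaled to library size, with TMM factors) was 259 and 278 in SSC, 256 and 193 in pBCSP, and 424 and 285 for BCSP. Downstream, PCP had 77.2 and 78.8 CPM, THY 95.7 and 96.9, BLSP 109.8 and 89.5, 6C3 45.2 and 75.2 and HEC 119.7 and 81.4. The groups did not overlap, and the log2 difference was 1.70 ± 0.13 (SE; adjusted p = 4.496e-08, edgeR). Other genes with wide gaps were Rps10 (log2 difference 1.82, at 0.428 to 6.37 CPM the scarcest of them), Rps27 (1.75), Rps27rt (1.65), Rpl15 (1.60) and Rps18 (1.59). Rps6, whose protein is the substrate of the S6 kinases, had 262 to 388 CPM in the 6 stem and progenitor libraries and 94.7 to 167 CPM downstream. Its difference was 1.23, and that of Rplp0 was 1.31.

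**Figure D2:**
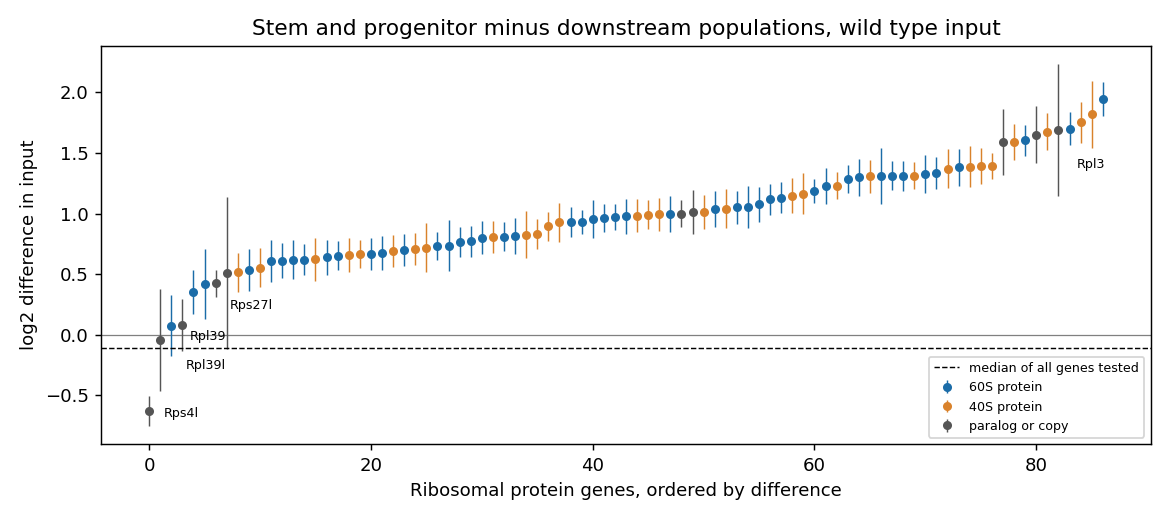
Log2 difference in input between stem and progenitor and downstream populations of wild type (y axis) for the 87 ribosomal protein genes tested, ordered by size (x axis). Points are estimates from edgeR and bars their SE, coloured by 60S protein, 40S protein or paralog, and the dashed line marks the median of all genes tested (−0.11). The lowest point is Rps4l at −0.63, and Rpl3 stands at 1.70.

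Genes tied to skeletal development or to Diamond-Blackfan anaemia were mostly higher as well. Of 10 such genes, Rpl38, Rpl24, Rpl10, Rpl5, Rpl11 and Rps19 among them, 9 were called higher in stem and progenitor cells, with a median log2 difference of 0.96 over the 10. Rpl38 had 106 and 119 CPM in SSC, 87.9 and 80.7 in pBCSP, 185 and 106 in BCSP and 51.2 to 120 CPM downstream. The 2 groups overlapped, since the higher HEC library reached 120 CPM, and the difference of 0.67 was among the smaller ones. Rpl24, which was not called, had 0.42 ± 0.29 (adjusted p = 0.2425, edgeR) at 0.894 to 3.24 CPM.

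The 6 genes that did not pass were Rpl24, Rpl37rt, Rpl39, Rpl39l, Rpl41 and Rps3a3. Rpl39 encodes a short protein of the peptide exit tunnel, and Rpl39l is its paralog, which in adults is known from the testis. Rpl39 had 26.2 and 33.8 CPM in SSC, 23.3 and 18.4 in pBCSP, 50.1 and 24.6 in BCSP and 5.71 to 44.98 CPM downstream, and its log2 difference was 0.07 (adjusted p = 0.8595, edgeR). Rpl39l had a pattern of its own. It was at 1.95 to 5.27 CPM in the 6 stem and progenitor libraries, at 8.21 and 7.20 CPM in PCP, 6.89 and 6.30 in THY and 10.6 and 7.09 in BLSP. In 6C3 it was at 1.07 and 1.06 CPM and in HEC at 0.712 and 0.752 CPM. The mean difference between stem and progenitor and downstream cells was 0.08 (adjusted p = 0.8123). Against the mean of the other 7 populations, Rpl39l was higher in PCP (1.40), THY (1.14) and BLSP (1.62) by edgeR, with adjusted p of 0.002407, 0.01152 and 0.000898, where 12.9%, 10.8% and 9.39% of all genes were higher. It was lower in HEC (−2.47, adjusted p = 0.0008687), where 2.88% of all genes were lower.

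Other paralogs followed their partners to different degrees. Rpl22 had 33.8 to 90.6 CPM in stem and progenitor inputs and 12.3 to 32.1 CPM downstream, a log2 difference of 1.33, and Rpl22l1 a difference of 1.01. Rps27l, a target of p53, had 75.3 to 149 CPM against 62.4 to 91.8 CPM and a difference of 0.42, where Rps27 had 1.75. Rps4l, annotated as a transcribed processed pseudogene, was the 1 member that was lower in stem and progenitor cells. It had 31.3 and 36.4 CPM in SSC, 30.9 and 28.4 in pBCSP, and 37.9 and 39.8 for BCSP against 34.0 to 68.4 CPM downstream, where the groups overlapped, with a difference of −0.63 ± 0.12. Its partner Rps4x ran the other way, at 153 to 326 CPM against 44.4 to 148 CPM. Reads that fit both copies of such a pair could have been assigned to either.

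Set against the mean of the other 7, BCSP, 6C3 and SSC gave most of the calls. BCSP had 78 members higher (12.7% of all genes were), SSC 58 (11.9%) and pBCSP 20 (9.59%), with median differences of 0.99, 0.73 and 0.35. In BCSP the widest differences without overlap were those of Rpl3 (1.62 ± 0.18), Rpl13a (1.47) and Rps12 (1.40). 6C3 had 61 members lower (3.85% of all genes), with a median of −0.89, among them the sparsely counted processed pseudogene Rpl6l (−3.69 ± 1.15), Rps27rt (−1.64) and Rpl3 (−1.31). PCP had 26 members lower (5.07%) with a median of −0.57. THY, BLSP and HEC stood near the middle, with 4, 3 and 2 calls in all and medians of −0.19, −0.28 and −0.24. Lower calls numbered 2 in each of them, where 5.75%, 4.57% and 2.88% of all genes were lower, and Rpl4 was among them in BLSP (−0.48). Rps4l was higher in THY (0.69), and lower in pBCSP (−0.67), where 8.38% were lower.

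Several of these counts rested on a single library of a pair. Without the first 6C3 input the 61 calls in 6C3 became 3. That library had 40.03 CPM of Rpl10 against 149 CPM in the other, 52.3 against 177 CPM of Rps2, and 5.71 against 23.4 CPM of Rpl39. Without the first BCSP input the 78 calls in BCSP became 33, and without the second SSC input the 58 in SSC became 14. In pBCSP the 21 calls became 1 without the first input and 10 without the second. In PCP the 27 calls became 2 and 5 without the first and second PCP input, and 47, 42 and 17 without the first 6C3, the second BCSP and the first HEC input. The calls of Rpl6l in 6C3 and of Rpl4 in BLSP were each lost in 11 of the 16 fits that left out a library. The number of genes called therefore varied with the libraries kept in SSC, pBCSP, BCSP, PCP and 6C3.

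Genes of the wider translation machinery were measured beside the members. Of 19 companion genes tested, 16 were higher in stem and progenitor inputs (median 1.05), among them the elongation factors Eef2 (1.70) and Eef1a1 (1.48) and Gnb2l1, the scaffold protein RACK1 of the 40S subunit (1.32). Of 28 ribosome biogenesis genes 24 were higher (median 0.99), such as the nucleolar proteins Nop2 (1.92) and Nop58 (1.34) and the 40S maturation factor Nob1 (1.35). Of 77 mitochondrial ribosomal protein genes 36 were higher and 7 lower (median 0.28). Among 11 regulators of ribosomal protein genes, 5 were higher and 1 lower, with Myc at 0.96. Of 11 blood-cell genes tested, 8 were lower in stem and progenitor inputs (median −5.15) and 1 was higher, in step with the shares of blood-cell counts given above, and their part in the differences of ribosomal protein genes was not tested. Endothelial markers had 1 of 6 higher, and muscle markers 1 higher and 2 lower of 5.

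The second readout is the ratio of IP to input within a population. In all 8 wild-type populations ribosomal protein genes had a higher scaled level in the IP than in the input. Over the members the log2 ratio had a median of 1.19 for SSC, 1.39 for pBCSP and 1.32 for BCSP. Among downstream cells PCP had a median of 2.16, THY 1.99, BLSP 1.87, 6C3 2.12 and HEC 1.81, where the median of all genes lay between −0.05 and 0.03. Within the 16 pairs of libraries, 75 to 77 of the 77 core genes had a ratio above 0. Rps10 was below 0 in 15 pairs, at −4.15 to −0.31, and above 0 only in the second HEC pair at 0.49.

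Counted by edgeR at an adjusted p under 0.05, 51 members were higher in the IP of SSC (4.14% of all genes were), 76 in pBCSP (9.15%) and 17 for BCSP (0.848%). The downstream counts were 77 for PCP (4.85%), 79 for THY (11.1%), 78 for BLSP (11.5%), 76 for 6C3 (10.8%) and 78 for HEC (15.4%). The study's own threshold, a log2 ratio above 1 with an unadjusted p under 0.05, was set on DESeq2 output. Applied here to edgeR output, it gave counts of 58, 70, 64, 79, 79, 81, 80 and 78 in the same order. The corresponding shares of all genes were 10.4%, 12%, 6.67%, 10.6%, 12.4%, 12.4%, 14.5% and 13.5%. With replicate numbers as a block, which takes IP and input of a number as a pair, BCSP had 74 calls in place of 17 (4.28% of all genes). Some counts fell to 0 on losing a library, namely those of SSC without either of its inputs, BCSP without its second input and PCP without its first IP library. BCSP otherwise had 60 to 70 calls when a library was left out.

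Rpl7l1 went against the other members. This paralog of Rpl7 is known as a factor in ribosome assembly. Its log2 IP to input ratio was below 0 in all 16 wild-type pairs, from −1.44 in the first SSC pair to −0.17 in the first BCSP pair. It was called lower in the IP of SSC (−1.15), THY (−0.74), BLSP (−0.95), 6C3 (−0.88) and HEC (−0.76), where 5.27%, 14.9%, 16%, 15.3% and 17.8% of all genes were lower. The calls in SSC, THY and 6C3 were each lost in 2 of the 4 fits that left out a library. Ribosome biogenesis genes had median ratios from −0.60 in SSC to −0.38 in PCP, with 2 called higher and 5 lower in SSC. Companion genes had medians from 0.87 in BCSP to 1.37 in PCP. Transcripts of the mitochondrial genome were high in the IP as well, with medians from 1.59 in BCSP to 3.98 in 6C3 and 16 of 18 called higher in 6C3. Over the 77 core genes, the Spearman correlation of the mean log2 ratio with transcript length was 0.067 in stem and progenitor and −0.21 in downstream populations, a description across genes that share libraries.

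**Figure D3:**
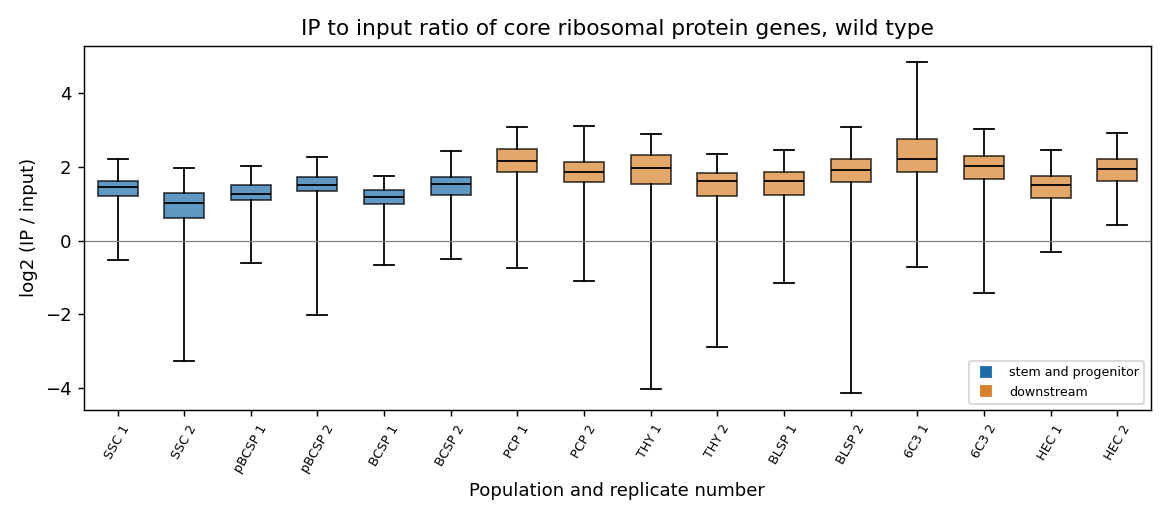
Log2 ratio of IP to input (y axis) of the 77 core ribosomal protein genes in each wild-type pair of libraries (x axis, population and replicate). Boxes span the quartiles with the median as a line, and whiskers reach the lowest and highest gene. Medians are 1.02 to 1.53 in the 6 stem and progenitor pairs and 1.53 to 2.21 in the 10 downstream pairs.

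By pair, the median ratio of the core genes was 1.45 and 1.02 in SSC, 1.27 and 1.51 in pBCSP, and 1.19 and 1.53 for BCSP. The PCP pairs had 2.16 and 1.86, THY 1.98 and 1.62, BLSP 1.63 and 1.92, 6C3 2.21 and 2.02 and HEC 1.53 and 1.96. The stem and progenitor pairs were the lower ones, and at the edge the second BCSP pair reached the first HEC pair. The difference between the ratios of the 3 stem and progenitor and the 5 downstream populations was tested in one edgeR model of 32 libraries. The ratio was lower in stem and progenitor cells for 33 of the 89 members tested, where 1.77% of all genes were lower. The median difference was −0.46 on the log2 scale against −0.08 over all 25365 genes, and for 23 members the pairs did not overlap (0.564% of all genes). Leaving out each library in turn gave 24 to 44 calls. In the same libraries the share of counts from the mitochondrial genome was 1.56 to 2.92% in stem and progenitor IP and 4.53 to 9.10% in downstream IP. The input level of the members, part of this ratio, was higher in stem and progenitor cells, as given above. Their share of IP counts was higher there too, at 3.54 to 4.52% against 2.40 to 3.43% downstream, while the ratio was lower.

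Rps28, a 40S protein, had the widest called difference without overlap. It had log2 ratios of 0.73 and −0.0038 in SSC, 0.86 and 1.12 in pBCSP, and 0.42 and 1.08 for BCSP. Downstream, PCP had 2.62 and 2.78, THY 2.66 and 1.86, BLSP 2.07 and 2.38, 6C3 3.49 and 2.68 and HEC 1.88 and 2.58. Every downstream pair was above every stem or progenitor pair, and the difference was −1.76 ± 0.23 (adjusted p = 2.436e-05, edgeR). Rps29, a zinc-binding protein of the head of the 40S subunit, ranged from 0.35 to 1.69 in the 6 stem and progenitor pairs and from 2.19 to 2.97 in the 10 downstream pairs (difference −1.46 ± 0.19). Rps27 ranged from 0.32 to 1.70 and from 2.02 to 3.23 (−1.42 ± 0.22). Next came Rps21 (−1.25), Rpl38 (−1.16), Rpl41 (−1.03), Rpl37a (−1.01) and Rplp1 (−0.99), each without overlap between the groups. Rps6 had ratios of 0.79 to 0.94 in stem and progenitor pairs and 0.66 to 1.29 downstream, a difference of −0.16 (adjusted p = 0.9033). Rplp0, the member of highest level per length, had −0.35 (adjusted p = 0.2627). Rps27l was called lower as well (−0.65). The start tract described above is present in Rps27, Rpl38 and Rps6 and not in Rps28.

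**Figure D4:**
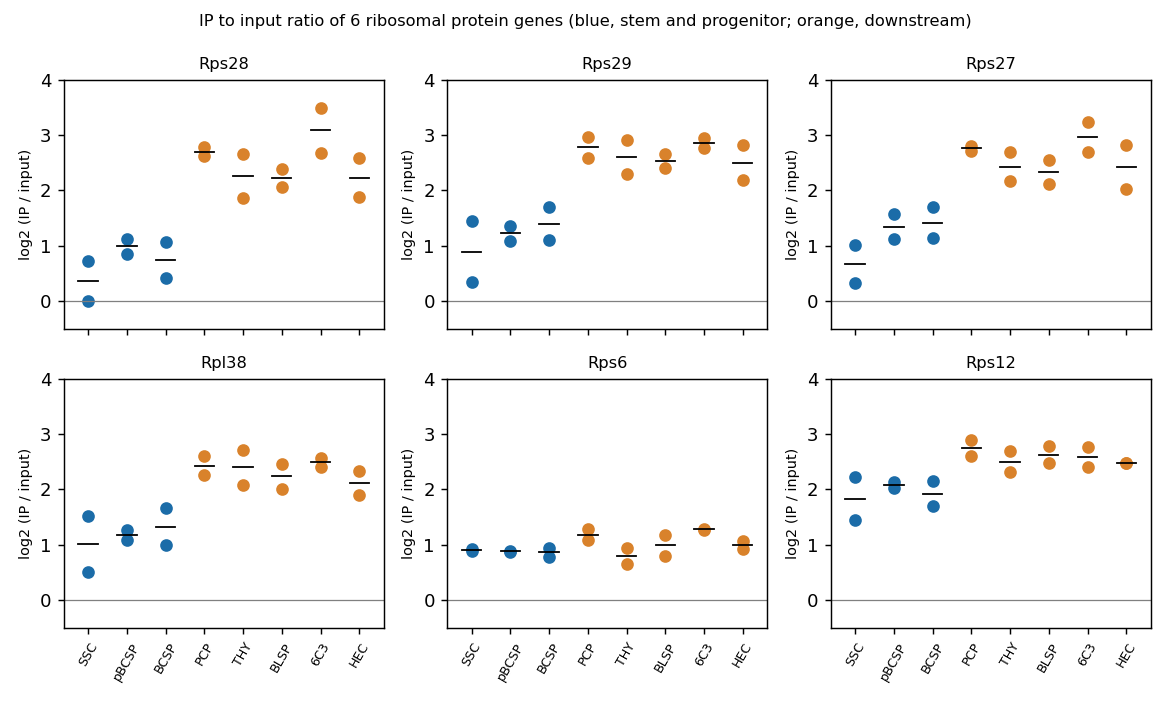
Log2 ratio of IP to input (y axis) of Rps28, Rps29, Rps27, Rpl38, Rps6 and Rps12 in the 8 wild-type populations (x axis). Each point is a pair of IP and input libraries, blue for stem and progenitor and orange for downstream, and bars are means of 2 pairs. For Rps28, Rps29, Rps27 and Rpl38 the blue and orange points do not overlap, and for Rps6 they do.

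A test of any difference in the ratio among the 8 populations called 3 members, Rps28 (adjusted p = 0.004826), Rps29 (0.009972) and Rps27 (0.02672), where 0.485% of all genes were called by edgeR. With the replicate block it called 30 (3.64% of all genes), and without a library 3 to 18. Of the other lists, companion genes had 1 of 19 lower in the stem and progenitor ratio (median −0.11), ribosome biogenesis genes 2 of 28 lower (median 0.11) and transcripts of the mitochondrial genome 5 of 19 lower (median −0.82).

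What happened to these genes in the libraries labelled Mettl3cko? In input they took a smaller share of the library in SSC and BCSP. The share was 1.04 and 1.20% in Mettl3cko SSC against 1.40 and 1.84% in wild type, and 1.02 and 1.25% in Mettl3cko BCSP against 2.28 and 1.64%. In pBCSP it was 1.14 and 1.33% against 1.496 and 1.31%, where the ranges overlapped. With 2 libraries against 2, edgeR called 0 members, and 0 genes in all, in any of the 3 populations at an adjusted p under 0.05. At an unadjusted p under 0.05 it gave 38, 5 and 64 members in SSC, pBCSP and BCSP, where 14.7%, 8.37% and 13.0% of all genes passed, and DESeq2 called 13, 0 and 42 lower after adjustment (1.66%, 0.574% and 1.43% of all genes). The study's threshold (log2 difference beyond 0.5, unadjusted p under 0.05) was set on DESeq2 output. Applied here to edgeR output, it had 36, 4 and 64 members lower, beside 7.07%, 4.48% and 5.72% of all genes. The median log2 difference was −0.46, −0.14 and −0.77. A difference among the 3 populations was called for 0 members by edgeR and by DESeq2, and 7 passed at an unadjusted p under 0.05 (4.50% of all genes).

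Averaged over the 3 populations in one edgeR fit of 12 input libraries, 35 of 87 members were lower in Mettl3cko (2.72% of all genes were) and 1, Rps4l, was higher (3.75%). The median was −0.47 against −0.05 over 18655 genes. The fit treats the libraries of a genotype as independent, and the sources do not say whether its populations came from a shared sort. Rps27rt, at 1.93 to 7.07 CPM over the 12 libraries, had the widest called difference, −1.08. Rpl10, a late-joining protein of the 60S subunit, was next. It had 208 and 284 CPM in wild-type SSC, 204 and 178 in pBCSP, and 352 and 236 for BCSP. The Mettl3cko libraries had 110 and 110 CPM in SSC, 104 and 142 in pBCSP, and 112 and 122 for BCSP, all below the wild-type libraries. The difference was −1.04 ± 0.14 (adjusted p = 0.002635, edgeR). Rps2, at the messenger RNA entry of the 40S subunit, had 195 to 454 CPM in wild type and 113 to 188 CPM in Mettl3cko (−0.90 ± 0.14). Rpl5, which carries 5S ribosomal RNA and with Rpl11 binds Mdm2, had 1133 to 1858 CPM against 577 to 970 CPM (−0.81 ± 0.15), and Rpl11 a difference of −0.60.

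Rpl36 (−0.88) and Rps18 (−0.81) were among the next. Of the 10 genes tied to the skeleton or to Diamond-Blackfan anaemia 7 were lower, and Rpl38 had −0.34 (adjusted p = 0.1953). Rps6 had 250 to 372 CPM in wild type and 211 to 295 CPM in Mettl3cko, a difference of −0.22 (adjusted p = 0.278). Rps4l had 27.2 to 38.2 CPM against 36.4 to 54.0 CPM, a difference of 0.48, and its call was lost in 10 of 12 fits without a library, as those of Rps27rt and Rplp0 were in 11. The count of 36 calls depended on single libraries. It became 9 without the second wild-type SSC input, 13 and 23 without the first and second Mettl3cko BCSP input, 16 without the first wild-type BCSP or the second Mettl3cko SSC input, 17 and 21 without the first and second wild-type pBCSP input and 20 without the first Mettl3cko SSC input. Beside the members, 12 of 28 ribosome biogenesis genes were higher in Mettl3cko input (median 0.44; Nop2 0.91), 4 of 19 companion genes were lower and 1 higher (median −0.29), and 3 of 9 blood-cell genes tested were higher, whose part in these differences was not tested.

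In the IP the members' share was higher in Mettl3cko SSC and pBCSP and overlapped with wild type in BCSP. It was 4.54 and 6.37% in Mettl3cko SSC against 3.72 and 3.54% in wild type, 4.53 and 6.10% against 3.57 and 3.55% in pBCSP, and 4.14 and 5.03% against 4.52 and 4.07% in BCSP. For the core genes the median ratio was 2.31 and 2.90 on the log2 scale in the Mettl3cko SSC pairs against 1.44 and 0.97 in wild type. It was 2.03 and 2.52 against 1.25 and 1.45 in pBCSP, and 2.21 and 2.17 against 1.12 and 1.48 in BCSP. All 6 Mettl3cko pairs were above all 6 wild-type pairs. The study reported a lower m6A level in Mettl3cko SSC, pBCSP and BCSP over its whole profiles, while these ratios are of the core genes alone.

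**Figure D5:**
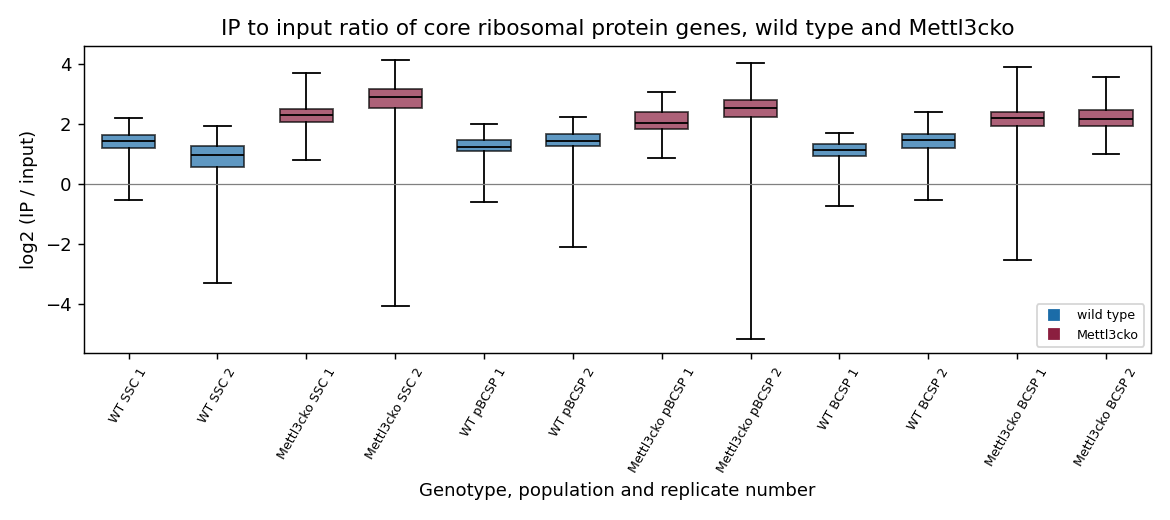
Log2 ratio of IP to input (y axis) of the 77 core ribosomal protein genes in wild-type (blue) and Mettl3cko (dark red) pairs of SSC, pBCSP and BCSP (x axis, genotype, population and replicate). Boxes span the quartiles with the median as a line, and whiskers reach the lowest and highest gene. Medians are 0.97 to 1.48 in wild type and 2.03 to 2.90 in Mettl3cko.

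Tested within each population, the change of the ratio with genotype gave 0 adjusted calls by edgeR among all genes, 67, 44 and 48 members higher at an unadjusted p under 0.05 in SSC, pBCSP and BCSP (3.26%, 2.06% and 2.49% of all genes) and 47, 10 and 14 members higher by DESeq2 after adjustment (1.96%, 0.732% and 0.807%). In the fit of 24 libraries, which averages the 3 populations, 63 of 89 members had a higher ratio in Mettl3cko. Of 20360 genes tested, 131 did (0.643%). The Mettl3cko IP libraries stood apart in the number of genes with at least 10 counts, 9813 to 12110 in these 6 libraries against 13905 to 15871 in the 6 matching wild-type IP libraries, while inputs had 14831 to 16234 and 15761 to 16268. The part of this gap in the ratios was not tested. The median difference of the members was 1.10, against −0.39 over all genes. For 70 members the Mettl3cko pairs lay above the wild-type pairs in each of the 3 populations (1.96% of all genes). The calls comprised 36 of 46 genes of the 60S subunit and 27 of 31 of the 40S subunit, and no paralog passed (adjusted p = 0.06881 for Rps27l, at 0.80). Leaving out each library in turn gave 41 to 73 calls, the lowest without the first wild-type BCSP input.

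Rps12, a 40S protein of the beak, had the widest difference. Its log2 ratios were 2.21 and 1.39 in wild-type SSC, 2.002 and 2.06 in pBCSP, and 1.62 and 2.10 for BCSP. In Mettl3cko they were 3.68 and 4.14, 3.05 and 4.05, and 3.89 and 3.56. No pair of 1 genotype overlapped with the other, and the difference was 1.88 ± 0.26 (adjusted p = 0.001263, edgeR). Rps21 (1.79), Rpl36 (1.62), Rps20 (1.53), Rps28 (1.53), Rps29 (1.51), Rps2 (1.44) and Rplp2 (1.43) followed. Rpl38 had ratios of 0.46 to 1.60 in wild type and 2.10 to 2.95 in Mettl3cko (1.40 ± 0.24).

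For Rpl10 the inputs of the genotypes did not overlap, while the IP ranges did. Rpl10 had 181 to 355 CPM in wild-type input and 105 to 144 CPM in Mettl3cko input, and 522 to 774 CPM in wild-type IP and 594 to 851 CPM in Mettl3cko IP, on the common scale of the 24 libraries. The difference of its ratio was 1.25. The comparison of inputs and that of ratios share the 12 input libraries, so a low Mettl3cko input raises the ratio. Rps6, whose inputs overlapped, had ratios that did not overlap within the populations and a difference of 0.62 (adjusted p = 0.1152). Rplp0 had 0.62 (adjusted p = 0.05424) with wild-type ratios of 0.57 to 0.95 and Mettl3cko ratios of 1.01 to 1.58. Rpl5, with a lower input, had 0.56 (adjusted p = 0.1759). Rps10 scattered from −5.17 to 1.56 in the Mettl3cko pairs and showed no common direction. Of the other lists, 3 of 19 companion genes had a higher ratio (median 0.68), 0 of 28 ribosome biogenesis genes did (median 0.10, edgeR), and transcripts of the mitochondrial genome had a median of 0.09.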

How the data were processed

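Counts per gene and library, deposited by the authors, were the only unit used. Per the labels and the study's methods, the authors trimmed reads with fastp 0.20.1, aligned them to GRCm38 (mm10) with HISAT2 2.2.1 and counted them with featureCounts 2.0.1. The annotation, strand setting and treatment of reads mapping to several places are not given in the sources used here, so genes with near-identical copies are uncertain. From 46959 table entries, 128 whose names had been turned into dates (at most 0.390% of a library) were left out, which left 46831. Groups followed the sample titles, because the genotype label reads wild type for all 44 samples.

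Counts were scaled by TMM, filtered with filterByExpr and tested with edgeR 4.0.16 (quasi-likelihood, R 4.3.3) over all genes, with Benjamini-Hochberg adjustment over all genes tested and calls at an adjusted p under 0.05. The SE is the log2 difference divided by the square root of F. Per-library log2 ratios use a prior count of 2, and per-library CPM use none. Levels per length used GENCODE vM21 exons (all 91 members matched). Named genes are up to 8 per direction with the largest called difference and no overlap between groups, the 4 with the smallest p where fewer than 4 passed, and preset lists of paralogs, disease-linked and core members. Some genes that this rule takes are not reported here. DESeq2 1.42.0, DESeq2 size factors, library size alone, no filter, a replicate block, joint fits and leaving out each library were tried as alternatives. In simulated counts, 200 genes were changed by a log2 change of 1. Of these, 42% were recovered in the comparison of stem and progenitor with downstream input and 38% in the mean input effect of Mettl3cko. In its mean ratio effect 1% were recovered, and 0% in PCP IP against input and in Mettl3cko BCSP input. Unchanged genes called numbered 5, 9, 0, 1 and 2 in the same order, beside 84, 76, 2, 0 and 0 changed genes recovered. The study divided sorted cells of a batch, and a shared replicate number was taken here to pair IP with input (correlation of their replicate differences 0.0264 to 0.289). The sources used here do not state that pairing by number, nor whether a number marks a shared sort across populations or genotypes. Fits over several populations treat their libraries as independent, and their p-values rest on that.

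The study describes replicates as independent experiments and does not tie each library to an animal. The members and lists were chosen with earlier results of these data known.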

Additional observations from a re-analysis of the deposited data

Results flagged for a closer look

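The IP to input ratio of 3 ribosomal protein genes differed among the 8 wild-type populations in a test of the difference itself (edgeR, population by assay interaction): Rps28 with adjusted p = 0.004826, Rps29 with adjusted p = 0.009972 and Rps27 with adjusted p = 0.02672. Tested between 3 stem and progenitor and 5 downstream populations, the ratio differed for 33 members. Tested between Mettl3cko and wild type over 3 populations, it differed for 63 members. The groups have 2 libraries each, so no sample could be tested as standing apart from its group.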

How the results depend on the processing

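Counts are members called by edgeR at an adjusted p under 0.05. With a replicate block, which pairs IP and input, calls in BCSP IP against input went from 17 to 74 and those among the 8 populations' ratios from 3 to 30. In Mettl3cko SSC input, where no source used here ties a number to a shared sort of both genotypes, the block gave 6 in place of 0. No other count moved by more than 1.5 times under it. Under DESeq2's test the counts were 45 in PCP against the other populations, 7 in THY, 6 in BLSP and 6 in HEC, 75 in BCSP IP against input, 35 among the 8 populations' ratios, 53 in the ratio of stem and progenitor against downstream populations, 13 and 42 in Mettl3cko input of SSC and BCSP, and 47, 10 and 14 in the Mettl3cko ratio of SSC, pBCSP and BCSP. With no filter on low counts they were 49 in PCP, 7 in THY, 5 in BLSP, 6 in HEC, 66 in BCSP IP, 29 among the ratios, 9 and 27 in Mettl3cko input of SSC and BCSP, and 2, 1 and 1 in the Mettl3cko ratio of SSC, pBCSP and BCSP. Scaling by library size alone gave 13 in PCP, 1 in BLSP and 5 in HEC, and turned the input difference of Rpl39 to −0.0158 and of Rpl39l to −0.0117, neither of which passed in any case. DESeq2 size factors gave 8 among the ratios. A joint fit of all populations gave 74 in BCSP IP and 1 in Mettl3cko BCSP input. Without mitochondrial genome transcripts the members' mean share of IP counts became 2.59% in 6C3, 3.60% in BLSP, 2.66% in HEC, 3.43% in PCP and 3.62% in pBCSP. The cause of these changes was not tested. Shares of all genes, given above, cover only the block in BCSP IP and among the ratios, and DESeq2 in Mettl3cko. For the other settings, and for the fits below without a library, no such share is given. Those member counts alone do not set the members apart from other genes.

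Leaving out each library in turn, calls ranged from 69 to 83 among the 8 input populations and from 78 to 82 between stem and progenitor and downstream input. Against the other populations they ranged from 14 to 69 in SSC, 1 to 29 in pBCSP, 33 to 80 in BCSP, 2 to 47 in PCP, 0 to 6 in THY, 0 to 7 in BLSP, 3 to 72 in 6C3 and 1 to 5 in HEC. For IP against input they ranged from 0 to 75 in SSC, 57 to 80 in pBCSP, 0 to 70 in BCSP, 0 to 79 in PCP, 75 to 85 in THY, 77 to 81 in BLSP, 71 to 78 in 6C3 and 78 to 81 in HEC, from 3 to 18 among the 8 ratios and from 24 to 44 for the ratio of stem and progenitor against downstream cells, where the dispersion trend of the 32 libraries was kept. In Mettl3cko they ranged from 9 to 41 for the mean input difference, 0 to 1 in SSC and in pBCSP input, 0 to 0 in BCSP input, 41 to 73 for the mean ratio, and 0 to 71, 0 to 30 and 0 to 3 for the ratio in SSC, pBCSP and BCSP. The 71 in SSC came without the first Mettl3cko SSC IP library. The input difference of Rpl39 ran from −0.13 to 0.34 and that of Rpl39l from −0.0944 to 0.20 in such fits. With 2 libraries a group, a gene that missed the threshold is not shown to be equal between groups, and low counts limit Rps10, Rpl24, Rpl39l and the pseudogene copies most.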
